A study of Mus musculus with 2 samples.

Results

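The microRNAs described here are the mature products of 3 mouse hairpins, Mir129-2, Mir129-1 and Mir670. They were taken by name from the deposited tables as mmu-miR-129-5p, mmu-miR-129-2-3p, mmu-miR-129-1-3p, mmu-miR-670-5p and mmu-miR-670-3p (the prefix for mouse is left out below), and all 5 were listed among the 1909 mature microRNAs of each table. They were selected on their host gene and on their raw read counts in both libraries, so the levels and ratios below are a description and no test was applied to them. The study sequenced small RNA from cultured vascular smooth muscle cells of the thoracic aorta, to ask which microRNAs differ in type 2 diabetes. The db/db library came from male diabetic mice labelled BKS.Cg-m+/+Leprdb/J, in which both copies of the leptin receptor gene carry the db allele. The db/+ library came from male control mice labelled Lepr+/-, which carry the allele on 1 copy. Mice of both groups were 10 to 12 weeks old, and both cultures were grown in DMEM/F-12 medium with 10% fetal bovine serum and antibiotics. There was 1 library per group, and the sources used here do not say how many mice each culture came from. A difference below is therefore one between 2 libraries, and the spread between mice or cultures is unknown.

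A microRNA is cut from the arms of a hairpin precursor, and the base-paired arms give a 5p and a 3p product, of which usually 1 accumulates. The strand kept in the Argonaute protein finds target messenger RNAs mainly through its seed, the letters 2 to 8. In the nervous system miR-129 is best known as a brain-enriched microRNA whose 5p product represses the potassium channel Kv1.1, and miR-129-2 is known in several cancers as a repressor of the transcription factor Sox4 that is silenced by promoter methylation. Much less is known of miR-670, after which its long non-coding host RNA, Mir670hg, is named.

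The mature sequences are shown because they set which hairpin a read can come from. They are from RefSeq on GRCm38.p6, written 5′ to 3′, with the seed in capitals, and 4 of the 5 names were matched there.
miR-129-5p: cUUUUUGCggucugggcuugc
miR-129-2-3p: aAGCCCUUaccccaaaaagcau
miR-670-5p: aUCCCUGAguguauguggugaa
miR-670-3p: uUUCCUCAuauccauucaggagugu
None of the 4 seeds was shared with another of the 1623 measured names that have a sequence in that table. The 5p and 3p products of miR-129 thus have unlike seeds.

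The hairpins show why the 5p product cannot be assigned to a gene. The annotated mature stretches are in capitals, and the table marks only the 5p stretch of Mir129-1.
Mir129-2: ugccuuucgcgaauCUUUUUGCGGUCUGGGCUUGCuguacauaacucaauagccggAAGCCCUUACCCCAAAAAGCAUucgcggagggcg
Mir129-1: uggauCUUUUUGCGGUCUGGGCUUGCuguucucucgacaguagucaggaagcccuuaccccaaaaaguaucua
Mir670: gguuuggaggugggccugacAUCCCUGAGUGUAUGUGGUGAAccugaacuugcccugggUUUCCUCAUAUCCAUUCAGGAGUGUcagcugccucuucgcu
The 5p sequence of 21 letters stands unchanged in both miR-129 hairpins, so its reads belong to either copy. Over the 73 letters of the shorter hairpin, 58 were identical in a pairwise alignment (79.5%). The 22 letters of miR-129-2-3p match letters 49 to 70 of the Mir129-1 hairpin with 1 mismatch, C20U, where positions are counted from 1 at the 5′ end of miR-129-2-3p, its letter is given first and that of Mir129-1 last. The first 19 letters are the same, so the copies can be told apart on the 3p arm only by a letter close to the 3′ end.

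On chromosome 2 the hairpins Mir129-2 (chr2:94241364-94241453, minus strand) and Mir670 (chr2:94261300-94261399, minus strand) both lie within Mir670hg, a long intergenic non-coding RNA gene on the same strand, at chr2:94160636-94264918 in GENCODE M21. Counted from the annotated start of Mir670hg in the direction of transcription, Mir670 begins after 3.519 kb and Mir129-2 after 23.465 kb, with 19846 bases between the hairpins. Of the 7 annotated transcripts of Mir670hg, 5 span Mir670 and 3 span Mir129-2. All 3 have Mir129-2 in an intron, whereas 1 of the 5 has an exon that covers 22 bases of the Mir670 hairpin and the others have it in an intron. The other copy, Mir129-1 (chr6:29022619-29022691, plus strand), lies wholly within an exon of the non-coding gene Gm3294. Its nearest downstream protein-coding gene on the strand is Lep, which encodes leptin and begins 37528 bases further on.

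**Figure D1:**
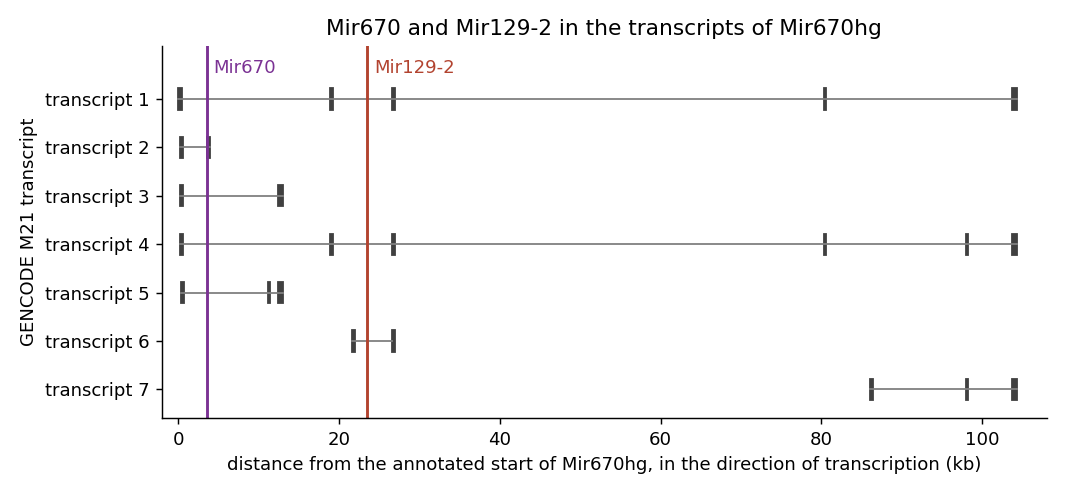
Positions of the Mir670 and Mir129-2 hairpins (coloured vertical lines) in the 7 annotated transcripts of Mir670hg; the horizontal axis is the distance in kb from the start of the gene, thin lines are introns, and dark boxes are exons, drawn slightly wider than to scale where short. Mir670, at 3.519 kb, falls in 5 transcripts and Mir129-2, at 23.465 kb, in 3.

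Depth was similar, with 24295112 microRNA counts over 833 detected names in the db/db library and 25915732 over 881 in the db/+ library. Values below are CPM, the counts scaled to a microRNA total of 1000000 in each library, and the upper limit behind a count of 0, set at 3 counts, is 0.123 CPM in db/db and 0.116 CPM in db/+. The smooth muscle markers miR-143 and miR-145a were present on both arms, with a summed level of 1567 CPM in db/db and 1656 CPM in db/+. Markers of blood cells and epithelium each summed to less than 1 CPM in both libraries. Of the 4 blood names, miR-142a-3p and miR-223-3p, which mark white blood cells, had 0 counts. The others were miR-142a-5p, with 2 counts in db/db and 1 in db/+, and miR-451a, with 14 in db/db and 17 in db/+. The epithelial names summed to 0.906 CPM in db/db and 0.270 CPM in db/+. The endothelial pair miR-126a summed to 2.92 CPM in db/db and 0.27 CPM in db/+. The part of such cells in the values below was not tested. Ratios are db/db over db/+, with a 95% interval that covers the counting error of reads only, since there was 1 library per group. Reads without molecular identifiers include PCR copies, so the interval can be too narrow even for the counting of molecules.

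The dominant product was miR-129-2-3p, which of the miR-129 hairpins only Mir129-2 holds without a mismatch. It had 15001 counts in the db/db library and 35450 in the db/+ library, or 617 CPM (95% Poisson interval 608 to 627) in db/db and 1368 CPM (1354 to 1382) in db/+. The ratio was 0.451 (0.443 to 0.460). The db/db level was thus below 0.5 of the db/+ level, and the ratio was also below 0.5 under each of the 5 other scalings tried, where it lay between 0.470 and 0.483. By level it was the 38th of 1909 names in db/db and the 28th in db/+. It thus ranked below the smooth muscle microRNA miR-143-3p in db/db and above it in db/+, since miR-143-3p stood at rank 30 in both libraries, with 1167 CPM in db/db and 1202 CPM in db/+. Levels of different microRNAs are only roughly comparable, because ligation and amplification depend on the sequence. In a bulk culture, fewer cells that make a microRNA and less of it per cell cannot be told apart.

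The 5p product was less abundant and differed less. For miR-129-5p there were 3394 counts in db/db and 5682 in db/+, or 140 CPM (135 to 144) in db/db and 219 CPM (214 to 225) in db/+, and the ratio was 0.637 (0.610 to 0.665). The 5p product of both hairpins is listed under 1 name, and no other name had the same pair of counts. That does not show how reads were shared between names. By level miR-129-5p ranked 76th in db/db and 67th in db/+.

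The product named for the chromosome 6 copy was rare. In db/db miR-129-1-3p had 26 counts, against 70 in db/+, which is 1.07 CPM (0.699 to 1.57) in db/db and 2.70 CPM (2.11 to 3.41) in db/+. Its ratio of 0.396 (0.242 to 0.630) had an interval that included the ratio of miR-129-2-3p. It held 0.173% (exact binomial 95% interval 0.113 to 0.253) of the 3p counts in db/db and 0.197% (0.154 to 0.249) in db/+, while the rest, 99.8% in each library, stood on miR-129-2-3p. The odds of this split in db/db over db/+ were 0.878 (0.537 to 1.40), an interval that includes 1. The proportion of the rare name to the abundant one was thus small in both libraries, and its intervals in them overlapped. How many of them were reads of miR-129-2-3p with a miscalled letter was not tested.

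The same proportion is given here for other pairs of names that are 1 letter apart, as a description. Each name of such a pair can have reads of its own, so these proportions do not measure miscalled letters. Among measured names of equal length whose more abundant member had at least 1000 counts in each library, 11 pairs differed by 1 letter. The proportion of the rarer to the commoner name was 0.432% in db/db and 0.016% in db/+ for miR-10b-5p to miR-10a-5p, the lowest of the 11 in db/+. It was 0.314% in db/db and 0.452% in db/+ for miR-29c-3p to miR-29a-3p, the lowest of the 11 in db/db, and the other 9 pairs lay above 2.9% in both libraries. The proportion of miR-129-1-3p lay between the values of the miR-10 pair in the 2 libraries. These pairs and the limit of 1000 counts were chosen after the counts were seen.

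**Figure D2:**
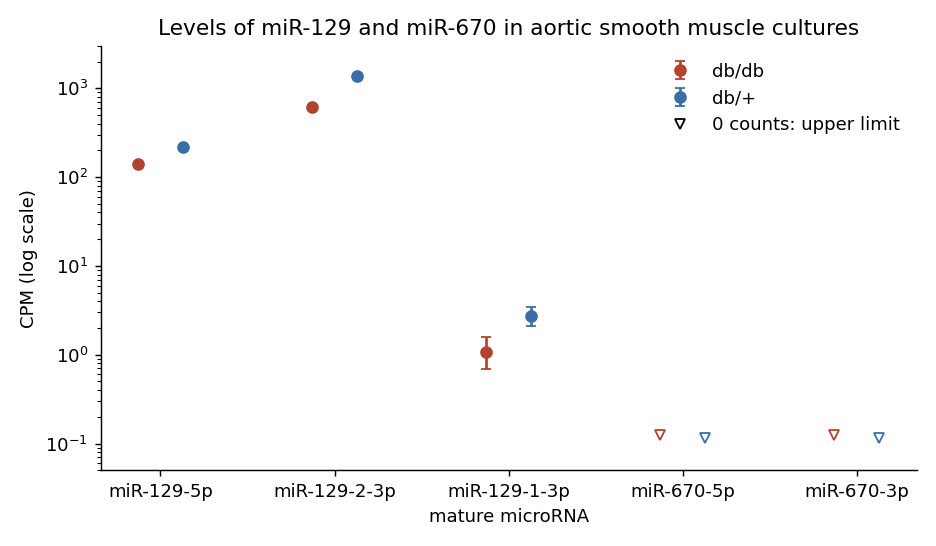
Level of each mature microRNA in CPM (log scale) in the db/db library (red, left) and the db/+ library (blue, right), with 95% Poisson intervals of the counts, which are smaller than the points for the abundant names; open triangles are the upper limit that a count of 0 allows. All 3 miR-129 products were lower in db/db, and both miR-670 products had 0 counts in both libraries.

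Summed over its 3 names, miR-129 had 18421 counts in db/db and 41202 in db/+, or 0.0758% of the library in db/db and 0.159% in db/+. The ratio was 0.477 (0.469 to 0.485), and it lay between 0.497 and 0.510 under other scalings, above 0.5 under 4 of them. Of the 3 miR-129 names, all of which passed a floor of 50 counts in at least 1 library, 2 were at least 2-fold lower in db/db and 0 higher. Of these, miR-129-1-3p reached the floor only in db/+, where it was high. Over all 356 names past that floor, 13.5% were at least 2-fold lower and 4.49% at least 2-fold higher, and the median log2 ratio was -0.14. Since these counts chose the members, nothing is read from that comparison.

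At the level of miR-129-2-3p, differences of at least 2-fold were few, with miR-129-2-3p itself among them. Of the 48 names that reached 500 CPM in at least 1 library, 2 (4.17%) were at least 2-fold lower in db/db and 0 at least 2-fold higher. The lower ones were miR-146b-5p, a brake on inflammatory signalling, with 253 CPM in db/db and 957 CPM in db/+ (ratio 0.264), and miR-129-2-3p. The next lowest were miR-23a-3p at a ratio of 0.552 and miR-26b-5p at 0.605, and the median log2 ratio of the 48 was -0.02. The limit of 500 CPM was chosen after the values were seen, and the counts of miR-129-2-3p also chose it as a member. Nothing is therefore read from its place among the 48. At 1000 CPM, 1 of 34 names was at least 2-fold lower, and at 200 CPM 3 of 71 were.

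**Figure D3:**
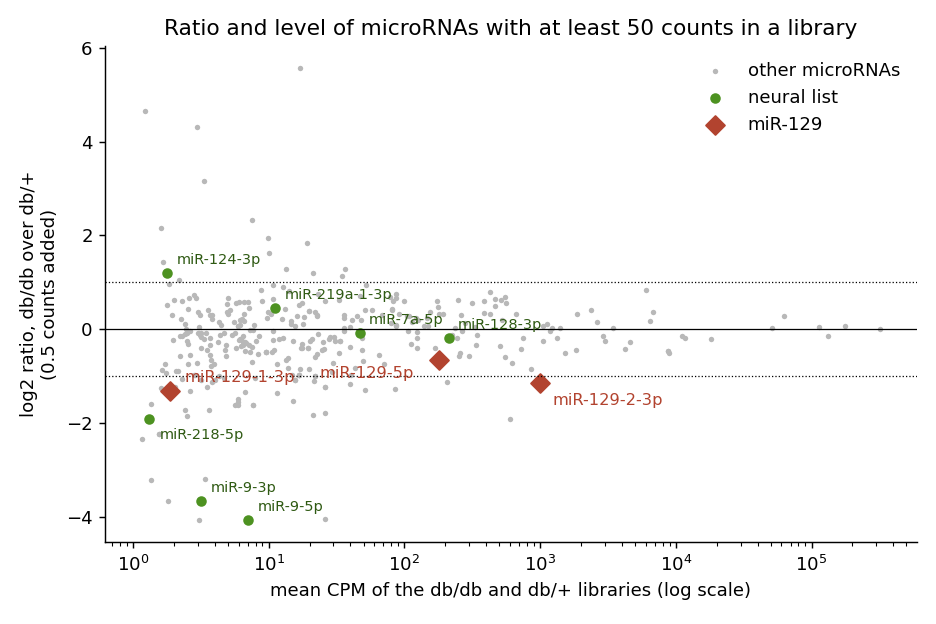
Log2 ratio of db/db over db/+ (0.5 counts added) against mean CPM (log scale) for the 356 microRNAs that reached 50 counts in either library; red diamonds are the miR-129 products, green points the neural list and grey points the rest, and dotted lines mark a 2-fold difference. The diamond of miR-129-2-3p, at -1.15, lies among abundant microRNAs of which most are near 0.

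The arms of miR-129 differed unequally between the libraries, a comparison within each library that does not depend on scaling. The 5p product made up 18.4% (17.9 to 19.0) of 18421 miR-129 counts in db/db and 13.8% (13.5 to 14.1) of 41202 in db/+. Put as a ratio, there were 4.43 counts on the 3p arm for each on the 5p arm in db/db and 6.25 in db/+. The odds of a 5p count were 1.41 (1.35 to 1.48) in db/db over db/+, given as a description since these counts also chose the members. The 3p arm was the major one in both libraries.

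Differences of that size also occurred in other hairpins, many of them with far fewer counts. Among 204 other hairpins whose arms together reached 50 counts in each library, the median absolute difference of the 5p share was 0.917 percentage points, and 48 (23.5%) had a difference at least as large as the 4.63 points of miR-129. Shares from few counts vary more by counting error, as for miR-702, with 60 counts in db/db and 102 in db/+ and a difference of 19.4 points. Some hairpins with many counts also differed. The difference was 18.8 points for miR-23b, with 31388 counts in db/db and 32364 in db/+. For miR-23a, with 16525 in db/db and 30109 in db/+, it was 5.46 points. For miR-25, with 71404 in db/db and 57452 in db/+, it was only -0.49 points. Other hairpins stood near 0% or 100% in both libraries, where little difference is possible. The 204 are therefore not a like-for-like background for miR-129. Because the 5p name collects reads of both copies and nearly all 3p counts stood on Mir129-2, the share is not that of 1 hairpin. Whether the 5p reads came from Mir129-2, Mir129-1 or both cannot be told apart from these counts.

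**Figure D4:**
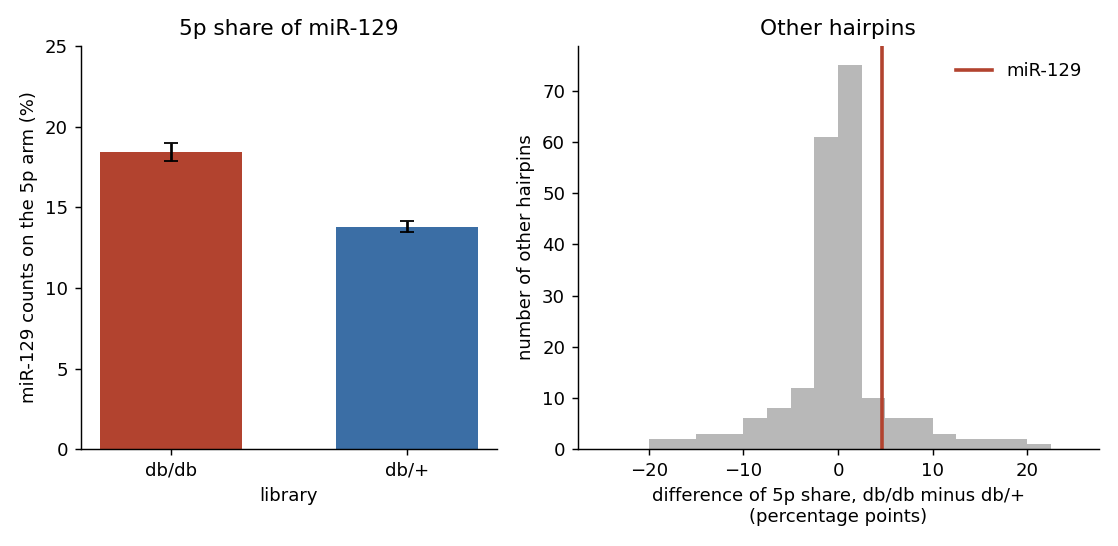
Left, share of miR-129 counts on the 5p arm in percent in the db/db and db/+ libraries, with exact 95% binomial intervals; right, histogram of the difference of the 5p share (db/db minus db/+, in percentage points) over 204 other hairpins, with miR-129 as a red line. The bars stand at 18.4% and 13.8%, and the red line at 4.63 points lies to the right of most hairpins.

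Neither product of miR-670 was counted. Both miR-670-5p and miR-670-3p had 0 counts in db/db and 0 in db/+, which allows up to 0.123 CPM of each in db/db and 0.116 CPM in db/+. A count of 0 was common, since 1076 of all 1909 names had it in db/db and 1028 in db/+. Mir129-2, which lies in the same annotated host gene and on the same strand, gave 617 CPM of its 3p product in db/db and 1368 CPM in db/+. The hairpins of the shared host thus had counts of very different size in both libraries, and no ratio between the libraries can be given for miR-670. The level of the host transcript was not measured by this assay. By RNAfold the Mir670 hairpin has a minimum free energy of -44.1 kcal/mol over 100 letters and that of Mir129-2 -48.0 over 90, against -31.0 over 73 for Mir129-1.

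The sequence of miR-670-5p has letters in common with an abundant family. Its letters 2 to 9, UCCCUGAG, are the first 8 letters of 5 measured names, among them miR-125a-5p, miR-125b-5p and miR-351-5p, known for regulating differentiation and cell survival. These are shown with letters 2 to 8 in capitals, for comparison with miR-670-5p above.
miR-125b-5p: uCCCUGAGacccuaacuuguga
miR-125a-5p: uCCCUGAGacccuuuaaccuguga
miR-351-5p: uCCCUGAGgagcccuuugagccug
The shared letters are offset by 1, so the 7-letter seeds differ. These relatives were well counted, with 3443 CPM in db/db and 3407 CPM in db/+ for miR-125b-5p, 742 CPM in db/db and 594 CPM in db/+ for miR-125a-5p, and 47.4 CPM in db/db and 21.6 CPM in db/+ for miR-351-5p. The other 2 names, miR-6394 and miR-6367, had 0 counts in both libraries.

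On the opposite strand, the annotated hairpin Mir129b (chr2:94241378-94241442, plus strand) lies over its whole 65 bases within Mir129-2. Its products show how close the antisense sequences are to miR-129, again with the seed in capitals.
miR-129b-5p: gCUUUUUGggguaagggcuucc
miR-129b-3p: cAAGCCCAgaccgcaaaaagauu
The files listed both with 0 counts in db/db and 0 in db/+, so no count stood on a plus-strand name of this locus. As said above, a count of 0 was common among all names.

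On a fixed list of microRNAs known from neural tissue, no name reached the level of miR-129-2-3p in either library. The list held 20 names, among them miR-9, which acts in neural progenitors, miR-124, which promotes neuronal identity, and miR-128 and miR-218, which are enriched in neurons. It summed to 264 CPM in db/db and 310 CPM in db/+, most of it miR-128-3p, with 199 CPM in db/db and 227 CPM in db/+. Of the 20, 12 were detected in db/db and 13 in db/+. Over all 1909 names, 833 were detected in db/db and 881 in db/+. The list had 6 names with 0 counts in both libraries, a number not given here over all names. On the list 7 names passed the floor of 50 counts, beside 356 of all 1909.

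Among those 7, 3 were at least 2-fold lower in db/db, 1 was at least 2-fold higher and 3 lay between, beside 13.5% lower and 4.49% higher over all 356 names past the floor. Their median log2 ratio was -0.19, against -0.14 over the 356. The lower ones were miR-9-5p, with 19 counts in db/db and 347 in db/+ (ratio 0.0584), miR-9-3p, with 11 in db/db and 154 in db/+ (0.0762), and miR-218-5p, with 13 in db/db and 54 in db/+ (0.257). The higher one was miR-124-3p, with 61 counts in db/db and 28 in db/+ (2.32, 1.46 to 3.78). In between lay miR-128-3p at 0.874, miR-7a-5p at 0.943 and miR-219a-1-3p at 1.37. Each of these 4 lower and higher names reached 50 counts only in the library where it was high, so the floor itself favours large ratios among them and no direction is read for the list. With a floor of 100 counts, 2 were lower and 0 higher.

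The names nearest to each miR-129 product were found by the Euclidean distance between their pairs of log2 CPM values over the 2 libraries. Nearest to miR-129-2-3p was miR-23a-3p, at a distance of 0.30, with 614 CPM in db/db and 1112 CPM in db/+. It was followed by miR-24-3p at 0.68, miR-23b-3p at 0.72, miR-30d-5p at 0.80 and miR-669c-5p at 0.89, all with ratios between 0.741 and 1.04. For miR-129-5p the nearest were miR-98-5p at 0.21 (ratio 0.755) and miR-16-5p at 0.37 (ratio 0.461). Next came miR-128-3p at 0.51 (0.874), miR-1981-5p at 0.61 (1.05) and miR-27a-3p at 0.62 (0.916). For miR-129-1-3p the nearest were miR-1839-3p at 0.17 (ratio 0.418) and miR-669o-5p at 0.27 (ratio 0.516). Next came miR-210-5p at 0.30 (0.416), miR-6516-5p at 0.36 (0.543) and miR-374c-3p at 0.41 (0.590). With 2 libraries a likeness of this kind rests on 2 values per name.

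The chromosomal surroundings held little else that was counted. The nearest measured microRNA gene beyond Mir129-2 and Mir670 at lower coordinates is Mir7001, 819 kb from Mir129-2, whose 5p product had 1 count in db/db and 1 in db/+ and whose 3p product had 0 in both. At higher coordinates it is Mir1902, 10187 kb from Mir129-2, with 0 counts in both. Around Mir129-1 the neighbours are Mir592, 1086 kb away, with 0 counts on both arms in both libraries, and Mir182, 1143 kb away. From Mir182 came miR-182-5p, a microRNA known from sensory epithelia, with 109 CPM in db/db and 64.6 CPM in db/+, a ratio of 1.69 (1.59 to 1.79), while its 3p arm, miR-182-3p, had 3 counts in db/db and 7 in db/+.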

How the data were processed

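The authors' deposited table for each of the 2 libraries holds raw counts per mature microRNA beside TMM-normalized reads, per the file headers. The normalized reads were rounded to whole numbers and were treated as a score; the authors' deposited score entered only 1 alternative scaling. Novoalign, edgeR and mm10 are named, without versions or roles, in the submitters' processing notes. How reads were trimmed, matched, assigned to a strand and shared between names is not given in the sources used here. Counts were scaled to the library total. Ratios carry exact conditional (Clopper-Pearson) 95% intervals from scipy 1.17.1, and the code for these intervals was run on simulated counts with known ratios before use. With 1 library per group, no model of replicate spread such as edgeR's could be fitted, and the text holds no p-value; differences were sized by a 2-fold rule with at least 50 counts in a library. Alternative scalings used edgeR 4.0.16 and DESeq2 1.42.0 in R 4.3.3. Hairpins were folded with RNAfold 2.7.2 and aligned with Biopython 1.88. Sequences are RefSeq's and gene models GENCODE M21's, both on GRCm38, the assembly also called mm10. The members and lists were chosen with earlier results of these data known. Names in the text are the members, the neural list past the floor, the 5 nearest names in level to each member and the neighbouring microRNA genes; others were chosen after their values were seen.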

Additional observations from a re-analysis of the deposited data

How the results depend on the processing

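All miR-129 ratios stayed below 1 under every scaling and pseudocount tried. The 4 other scalings computed from the counts shifted all log2 ratios by 0.06 to 0.10, more than the counting error of abundant names. The deposited TMM reads are rounded, so their shift varies a little from name to name, and for miR-129-1-3p they gave 0.424 beside 0.421 with edgeR TMM factors. The ratio of miR-129-5p was 0.677 with edgeR TMM factors and with the deposited TMM reads, 0.678 with DESeq2 size factors and 0.681 with upper-quartile factors. That of miR-129-2-3p was 0.480 (edgeR TMM and deposited TMM), 0.481 (DESeq2), 0.483 (upper quartile) and 0.470 (library total without the 10 most abundant names). The summed miR-129 ratio was 0.507 (edgeR TMM and deposited TMM), 0.508 (DESeq2), 0.510 (upper quartile) and 0.497 (total without those 10 names). The ratio of miR-129-1-3p stayed within its counting interval, at most 0.441 with 5 counts added. Over all names, 46 were at least 2-fold higher and 91 lower with a floor of 10 counts, 171 higher and 259 lower without a floor, and 48 higher and 86 lower by a 1.5-fold rule. In the neural list of 20 names, 0 were higher with a floor of 100 counts, and 3 were higher and 5 lower with no floor. At 1000 CPM, 1 of 34 names was at least 2-fold lower. Of 68 alternative values, 44 stayed within their interval or 1.5-fold and 24 moved. Direction was checked only for the miR-129 ratios, of which 0 changed it. Neither the scaling shifts nor the pseudocounts were large enough to bring these ratios to 1. The unchanged direction is therefore not read as robustness. For miR-670 no alternative gave a value, since both libraries had 0 counts. No paired analysis was possible because there was 1 db/db and 1 db/+ library, which also allowed no fit without a replicate. Counting error limits miR-129-1-3p most.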
